A study of Mus musculus with 6 samples.

Results

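Matrix metalloproteinases are zinc enzymes that cut collagen, laminin and other proteins between cells, and tissue inhibitors of metalloproteinases (TIMPs) bind and block them. The 10 genes described here are the 6 proteases Mmp2, Mmp3, Mmp9, Mmp11, Mmp14 and Mmp19 and the 4 inhibitors Timp1, Timp2, Timp3 and Timp4, taken by symbol from a fixed list out of 22040 genes in the deposited table. All 10 were found by their Ensembl identifiers, and all 10 passed the expression filter that left 14093 genes for testing. RNA of mouse white adipose tissue was sequenced in 3 Rb1 samples, from mice that received ginsenoside Rb1 by intraperitoneal injection at 14 mg/kg per day, and in 3 control samples, whose mice received saline by the same route. Ginsenoside Rb1 is a saponin of ginseng, and the study, by its title, concerns its action against obesity. The sources used here give neither the fat depot nor the diet, strain, age and duration of dosing, and they label the tissue only as white adipose.

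In growing fat, enlarging adipocytes need room in a collagen network, and proteases on the cell surface and in the matrix loosen it. Most of these enzymes are secreted as inactive precursors. The membrane protease encoded by Mmp14, together with Timp2, brings the precursor of the gelatinase Mmp2 to the cell surface and activates it. TIMPs differ in where they act, since Timp3 protein binds to the matrix and also blocks sheddases and aggrecanases of related families, whereas Timp1, Timp2 and Timp4 proteins are largely soluble. Timp4 is known as an inhibitor with high expression in adipose tissue and heart.

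Total counts ranged from 15440339 to 24501446 per library. The adipocyte markers Adipoq, Plin1, Lipe, Cidec, Fabp4, Lep, Pparg and Aqp7 together stood at 4297 to 5825 FPKM in Rb1 libraries and 4934 to 5672 FPKM in control libraries, where FPKM is the read count scaled to gene length and library total. Control replicate 2 stood apart through skeletal muscle transcripts, whose 12 listed genes took 0.00387% to 0.019% of counts in Rb1 libraries, 0.0393% and 0.0446% in control replicates 1 and 3, and 3.12% in control replicate 2. For Mmp2, Mmp3, Mmp11, Mmp14 and Timp1, whose fold changes moved most in relative size without that library, the value without it is given as well.

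No protease and no inhibitor of the list passed the test of Rb1 against control over all genes. The test was edgeR's quasi-likelihood test with Benjamini-Hochberg adjustment at 0.05, which called 1 of 14093 genes (0.0071%). Before adjustment, Timp4, Mmp9 and Timp3 had p under 0.05, all with higher values in Rb1 libraries, as did 565 genes in that direction in the whole table (4.01%) and 1063 in the other (7.54%). DESeq2, run as an alternative, called Timp4, Mmp9 and Timp3 higher, among 390 calls in the table (2.77%), 83 of them higher (0.589%) and 307 lower (2.18%). The DESeq2 calls depended on the libraries, since none of the 10 genes passed in DESeq2 without control replicate 2 or without Rb1 replicate 3. The median log2 fold change of the 10 genes was 0.11, with 8 values above 0, beside a median of 0.01 over all genes tested. That median rested on single libraries, at 0.39 without Rb1 replicate 1, -0.075 without Rb1 replicate 2 and 0.032 without control replicate 2.

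**Figure D1:**
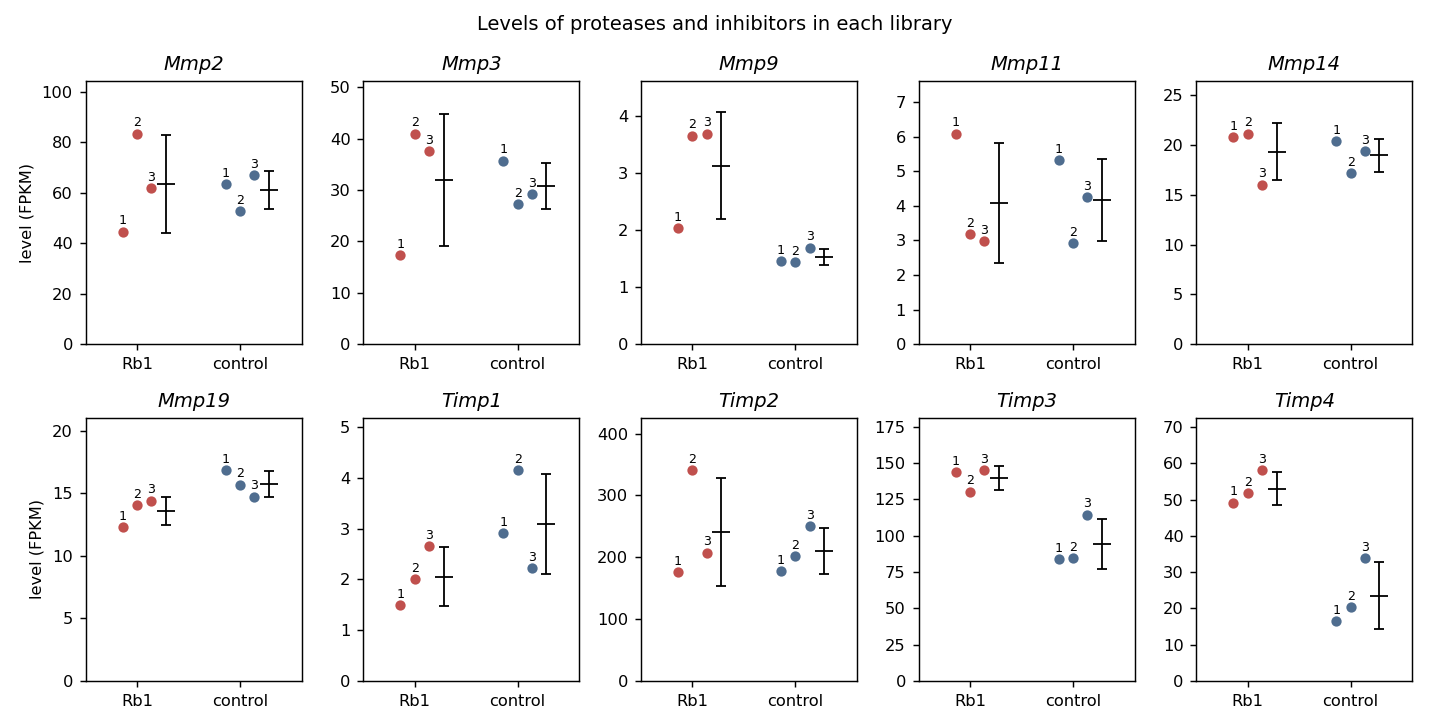
Level of each gene in FPKM on a linear axis from 0, with Rb1 libraries in red on the left and control libraries in blue on the right of each panel. Numbers are replicates, and the black mark with bars is the mean ± SD of 3 libraries. Rb1 and control points are separate for Mmp9, Timp3 and Timp4, which are higher in Rb1, and for Mmp19, which is lower, and they overlap in the other 6 panels.

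Timp4, the inhibitor typical of fat and heart, had the smallest p of the 10 genes. It stood at 49.2, 51.8 and 58.0 FPKM in Rb1 replicates 1, 2 and 3, against 16.4, 20.3 and 33.8 FPKM in control replicates 1, 2 and 3. The lowest Rb1 library was above the highest control library, control replicate 3. Means were 53.0 ± 4.57 FPKM with Rb1 and 23.5 ± 9.14 FPKM in controls (SD, n = 3 each). The log2 fold change was 1.21 (SE 0.29, 95% interval 0.52 to 1.89, edgeR adjusted p = 0.229, DESeq2 adjusted p = 0.00304), a 2.31-fold higher level. Without control replicate 2 the DESeq2 adjusted p was 0.0676, and without Rb1 replicate 3 it was 0.0728. Timp4 (ENSMUSG00000030317) occupies chr6:115241892-115252205 on the minus strand (GRCm38, as for all positions given), inside the gene Syn2, which runs along the opposite strand and encodes a synaptic vesicle protein. Annotated exons of Timp4 and Syn2 share 90 bases, and Syn2 was at 1.12 ± 0.133 FPKM with Rb1 and 0.976 ± 0.190 FPKM in controls (SD, n = 3 each), so its reads were few beside those of Timp4.

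Timp3, which encodes the inhibitor held in the matrix, was also higher in every Rb1 library than in any control library. It stood at 144, 130 and 145 FPKM in Rb1 replicates 1, 2 and 3, against 84.0, 84.7 and 114 FPKM in control replicates 1, 2 and 3. Control replicate 3 was again the control library nearest to the Rb1 group. Means were 140 ± 8.17 FPKM with Rb1 and 94.4 ± 17.4 FPKM in controls (SD, n = 3 each). The log2 fold change was 0.60 (SE 0.17, 95% interval 0.19 to 1.01, edgeR adjusted p = 0.280, DESeq2 adjusted p = 0.0336). In DESeq2 the call held in 1 of 6 fits with a library left out, the one without control replicate 3. Timp3 (ENSMUSG00000020044) occupies chr10:86300372-86349506, plus strand, inside Syn3 on the minus strand, with 1733 exon bases shared. Syn3 had 9, 9 and 88 counts in Rb1 replicates 1, 2 and 3 and 44, 14 and 44 counts in control replicates 1, 2 and 3, beside at least 14504 counts for Timp3 in every library.

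The stretches before the start sites of Timp4 and Timp3 are shown because these are the 2 inhibitors with separate groups, and that of Mmp3 because it alone among the 7 genes matched holds the AP-1 motif TGANTCA, which binds Fos, Jun and related factors. Sequences are from the RefSeq promoter table on GRCm38.p6, which held 7 of the 10 genes, and read 5′ to 3′ along each gene. Capitals mark TGANTCA, searched on both strands, on which it reads alike, and the TATA box TATAAA, also searched on both strands, with no overlap between the matches. The windows are chr6:115252206-115252455 on the minus strand for Timp4, chr10:86300162-86300371 on the plus strand for Timp3 and chr9:7445572-7445821 on the plus strand for Mmp3.
Timp4: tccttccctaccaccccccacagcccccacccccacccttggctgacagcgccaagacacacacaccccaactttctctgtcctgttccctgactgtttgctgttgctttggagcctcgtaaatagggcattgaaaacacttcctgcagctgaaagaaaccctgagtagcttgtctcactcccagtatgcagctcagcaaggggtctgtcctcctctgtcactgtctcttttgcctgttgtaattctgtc
Timp3: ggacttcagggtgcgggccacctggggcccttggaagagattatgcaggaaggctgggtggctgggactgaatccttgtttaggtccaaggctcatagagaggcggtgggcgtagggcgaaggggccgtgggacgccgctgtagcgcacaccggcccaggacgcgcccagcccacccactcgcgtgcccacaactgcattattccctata
Mmp3: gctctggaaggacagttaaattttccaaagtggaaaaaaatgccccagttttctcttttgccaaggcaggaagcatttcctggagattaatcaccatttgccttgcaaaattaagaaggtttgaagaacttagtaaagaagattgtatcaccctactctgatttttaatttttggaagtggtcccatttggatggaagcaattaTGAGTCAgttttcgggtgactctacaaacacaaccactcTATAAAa
Of 32851 promoter windows of 250 bases in the table, 6.75% held TGANTCA and 12.37% held TATAAA. The windows of Mmp11 and Timp2, searched but not printed, lie wholly inside those genes as GENCODE annotates them. Mmp3 had 1 match to each, with TGANTCA beginning 46 bases and TATAAA 7 bases before the annotated start. Timp4 and Timp3 had no match to either in their 250 bases, of which 210 are printed for Timp3 because the rest lies inside the gene as GENCODE annotates it. The 2 promoters differ in base composition, with 2 CpG dinucleotides before Timp4 and 18 before Timp3, and a median of 6 over all windows.

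Timp2 was the most abundant of the 10 genes and its groups overlapped. Its level was 176, 341 and 208 FPKM in Rb1 replicates 1, 2 and 3, against 178, 202 and 251 FPKM in control replicates 1, 2 and 3. Rb1 replicate 2 was the highest library and Rb1 replicate 1 the lowest, so the Rb1 group spanned the controls. The log2 fold change was 0.25 (SE 0.30, 95% interval -0.46 to 0.95, edgeR adjusted p = 0.812), and -0.12 without Rb1 replicate 2. Timp2 (ENSMUSG00000017466) occupies chr11:118301069-118355740, minus strand, and shares exon bases with no other annotated gene.

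Timp1, the soluble inhibitor that inflammation and injury induce in many tissues, was the least abundant inhibitor and had the opposite sign. It stood at 1.50, 2.01 and 2.65 FPKM in Rb1 replicates 1, 2 and 3, against 2.91, 4.15 and 2.22 FPKM in control replicates 1, 2 and 3. Control replicate 3 lay below Rb1 replicate 3, so the groups overlapped. These levels rest on 42, 43 and 90 counts with Rb1 and 77, 135 and 62 counts in controls. The log2 fold change was -0.53 (SE 0.33, 95% interval -1.33 to 0.26, edgeR adjusted p = 0.608), and -0.25 without control replicate 2, where Timp1 was highest. Timp1 (ENSMUSG00000001131) occupies chrX:20870166-20874735, plus strand, inside Syn1 on the minus strand, with no exon bases shared.

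Mmp9, which encodes gelatinase B, was the protease with the smallest p. It stood at 2.04, 3.66 and 3.69 FPKM in Rb1 replicates 1, 2 and 3, against 1.46, 1.45 and 1.70 FPKM in control replicates 1, 2 and 3. Rb1 replicates 2 and 3 were far above the controls and Rb1 replicate 1 was just above them. Means were 3.13 ± 0.944 FPKM with Rb1 and 1.53 ± 0.141 FPKM in controls (SD, n = 3 each), on 163 to 357 and 110 to 135 counts. The log2 fold change was 1.08 (SE 0.28, 95% interval 0.42 to 1.75, edgeR adjusted p = 0.254, DESeq2 adjusted p = 0.0238), a 2.12-fold higher level, and 1.34 without Rb1 replicate 1. In DESeq2 the call held in 2 of 6 fits with a library left out, those without Rb1 replicate 1 and without control replicate 3. Mmp9 (ENSMUSG00000017737) occupies chr2:164940780-164955850, plus strand, and shares exon bases with no other gene.

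Neutrophils store Mmp9 protein in their granules, and 11 of their markers were examined beside it. They summed to 12.4, 3.87 and 3.48 FPKM in Rb1 replicates 1, 2 and 3, against 6.44, 5.49 and 4.21 FPKM in control replicates 1, 2 and 3. The groups overlapped, with the highest sum in Rb1 replicate 1. Only 4 of the 11 had enough counts to be tested, and none passed in edgeR or DESeq2. Log2 fold changes were 1.42 for S100a9 (edgeR adjusted p = 0.524), -0.07 for Retnlg, -0.36 for Csf3r and -0.42 for S100a8. S100a9 had 86, 16 and 12 counts in Rb1 replicates 1, 2 and 3 and 13, 17 and 15 counts in control replicates 1, 2 and 3, so only Rb1 replicate 1 stood out. Among the untested markers, Cxcr2 had 36, 12 and 7 counts with Rb1 and 6, 9 and 7 in controls, and Ltf had 10, 5 and 7 with Rb1 and 0, 5 and 0 in controls. Ly6g had 0 counts in all 6 libraries, Mpo and Camp had at most 3 counts in any, and Elane and Ngp at most 14. The part of neutrophils in the higher level of Mmp9 was not tested. In bulk tissue, fewer cells of a type and less RNA per cell cannot be told apart, for this and every other gene described.

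Mmp2, gelatinase A, was the most abundant protease, and values of Mmp14, its membrane activator, overlapped between the groups, as did those of Mmp2. Mmp2 stood at 44.6, 83.4 and 61.9 FPKM in Rb1 replicates 1, 2 and 3, against 63.5, 52.7 and 66.9 FPKM in control replicates 1, 2 and 3. Rb1 replicate 1 was the lowest library and Rb1 replicate 2 the highest, as for Timp2. The log2 fold change of Mmp2 was 0.11 (SE 0.26, 95% interval -0.50 to 0.71, edgeR adjusted p = 0.913), and 0.017 without control replicate 2. Mmp14 stood at 20.8, 21.1 and 16.0 FPKM in Rb1 replicates 1, 2 and 3, against 20.4, 17.2 and 19.4 FPKM in control replicates 1, 2 and 3. Every control value lay within the range of the Rb1 values, and the log2 fold change was 0.07 (SE 0.13, 95% interval -0.25 to 0.38, edgeR adjusted p = 0.896), and 0.0055 without control replicate 2. Mmp2 (ENSMUSG00000031740) occupies chr8:92827291-92853420 and Mmp14 (ENSMUSG00000000957) chr14:54431612-54445364, both on the plus strand with no shared exon bases.

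The stromelysins Mmp3 and Mmp11 did not separate the groups, and values of Mmp19 were slightly lower with Rb1. Mmp3, stromelysin-1, which degrades many matrix proteins and activates other precursors, stood at 17.3, 41.0 and 37.5 FPKM in Rb1 replicates 1, 2 and 3, against 35.7, 27.3 and 29.2 FPKM in control replicates 1, 2 and 3. Rb1 replicate 1 was below and the other Rb1 libraries were above every control, and the log2 fold change was 0.12 (SE 0.33, 95% interval -0.66 to 0.90, edgeR adjusted p = 0.928), and 0.047 without control replicate 2. Mmp11, stromelysin-3, which furin activates inside the cell, stood at 6.09, 3.18 and 2.98 FPKM in Rb1 replicates 1, 2 and 3, against 5.32, 2.93 and 4.26 FPKM in control replicates 1, 2 and 3. Here Rb1 replicate 1 was the highest library, and the 95% interval of the log2 fold change ran from -0.71 to 0.71, with an estimate of -0.19 without control replicate 2. Mmp19, a protease of basement membranes, stood at 12.3, 14.0 and 14.4 FPKM in Rb1 replicates 1, 2 and 3, against 16.8, 15.7 and 14.7 FPKM in control replicates 1, 2 and 3. The Rb1 values were all lower in FPKM, but the groups overlapped in CPM, the count scaled to the library total, after TMM scaling, and the log2 fold change was -0.16 (SE 0.11, 95% interval -0.44 to 0.11, edgeR adjusted p = 0.647). Mmp3 (ENSMUSG00000043613) occupies chr9:7445822-7455975, plus strand, and shares no exon bases. Mmp11 (ENSMUSG00000000901, chr10:75923222-75936496, minus strand) shares 155 exon bases with Chchd10, and Mmp19 (ENSMUSG00000025355, chr10:128790910-128800824, plus strand) shares 1001 with Gm47093 and Tmem198b, so their counts are uncertain to that extent.

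**Figure D2:**
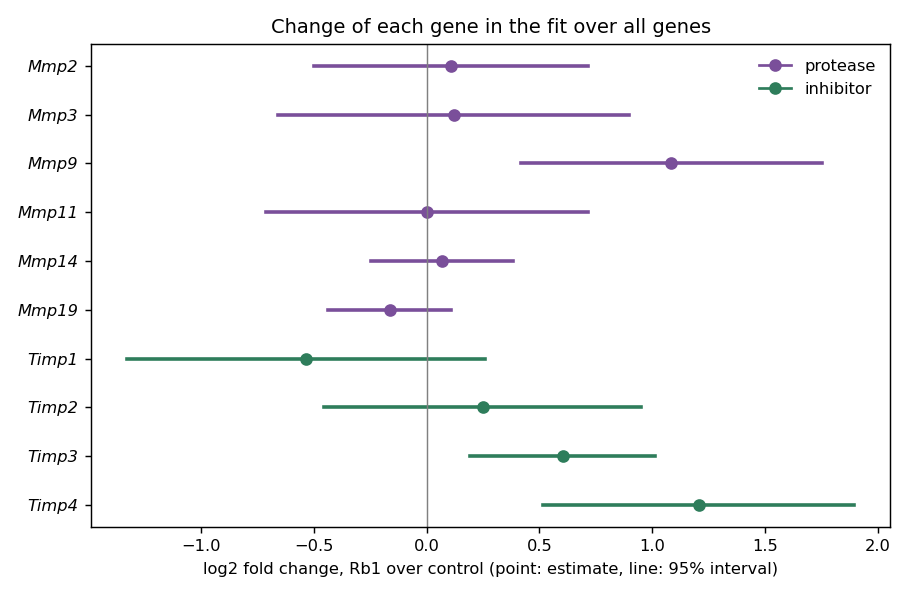
Log2 fold change of Rb1 over control for each gene on the horizontal axis, with points for edgeR estimates and lines for 95% intervals of single genes before adjustment. The intervals of Mmp9, Timp3 and Timp4 lie above 0, and those of the other 7 genes span 0.

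Groups did not overlap in FPKM for Timp4, Timp3 and Mmp9, higher with Rb1, and for Mmp19, lower with Rb1, beside 5.48% of all tested genes higher and 10.5% lower by the same criterion. For each of Timp4, Timp3 and Mmp9 the exact two-sided permutation p on log2(CPM + 1) was 0.1, the smallest that 3 samples against 3 allow. For the other 7 genes it lay between 0.2 and 1. Timp4 was between 0.98 and 1.59 on the log2 scale when each library was left out in turn, Mmp9 between 0.93 and 1.34 and Timp3 between 0.50 and 0.79. The signs of Mmp2, Mmp3, Mmp11, Mmp14 and Timp2 turned when 1 library was left out.

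**Figure D3:**
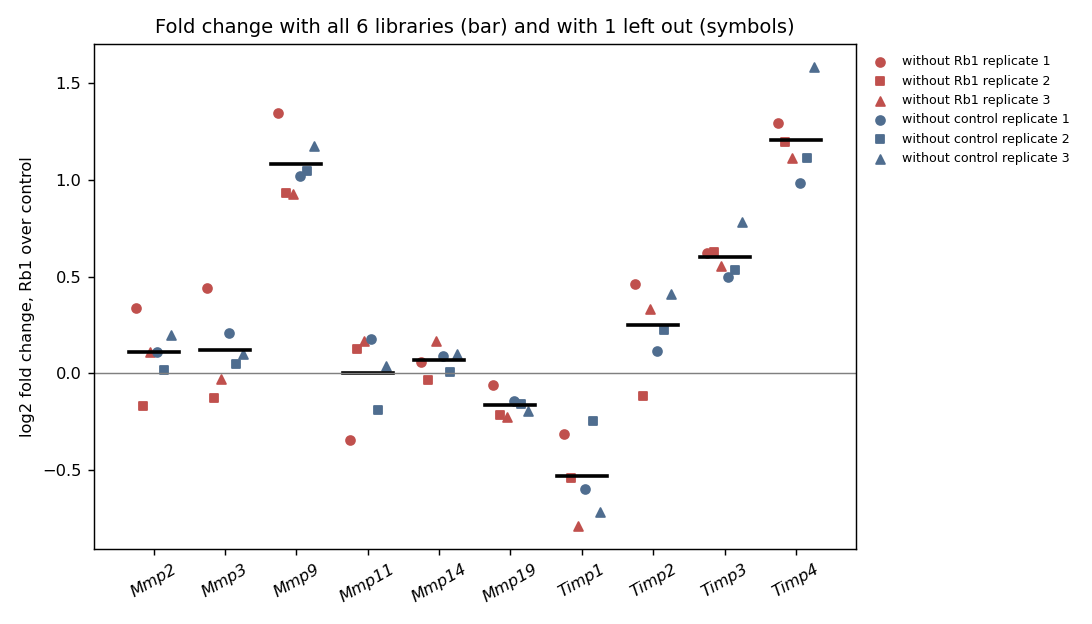
Log2 fold change of Rb1 over control on the vertical axis for each gene, with a black bar for all 6 libraries and symbols for fits that leave out 1 Rb1 library (red) or 1 control library (blue). Mmp9, Timp3 and Timp4 stay above 0 and Mmp19 and Timp1 below 0 in all 6 such fits.

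Transcripts of the 4 inhibitors outweighed those of the 6 listed proteases in every library. This holds for the listed genes only. Left out of the protease sum are 16 other matrix metalloproteinases, at 31.1 to 45.0 FPKM per library. Also left out are 20 genes of the related ADAM and ADAMTS families, at 217 to 318 FPKM per library. The 4 inhibitors summed to 370, 525 and 413 FPKM in Rb1 replicates 1, 2 and 3, against 281, 312 and 401 FPKM in control replicates 1, 2 and 3. The 6 proteases summed to 103, 166 and 137 FPKM in Rb1 replicates 1, 2 and 3, against 143, 117 and 136 FPKM in control replicates 1, 2 and 3. The ratio of the inhibitor sum to the protease sum was 3.59, 3.15 and 3.03 in the Rb1 libraries and 1.96, 2.66 and 2.94 in the control libraries. The groups were separate, but control replicate 3 came close to Rb1 replicate 3. The inhibitor sums alone overlapped, at 370 FPKM in Rb1 replicate 1 and 401 FPKM in control replicate 3. Timp3 and Timp4, parts of the inhibitor sum, each separated the groups already, so the ratio of the sums is no separate result. With Timp2 left out of the sum, the groups all but met, at 1.106 in Rb1 replicate 2 and 1.105 in control replicate 3. How often such ratios separate the groups among other genes was not examined. Timp2 made up 54.2 ± 9.37% of the inhibitor sum with Rb1 and 63.5 ± 1.27% in controls (SD, n = 3 each). Timp4 made up 12.4 ± 2.22% with Rb1 and 6.93 ± 1.35% in controls, and Timp1 0.477 ± 0.143% and 0.973 ± 0.393%. Mmp2 made up 46.2 ± 3.53% of the protease sum with Rb1 and 46.1 ± 2.60% in controls, and Mmp9 2.30 ± 0.371% and 1.17 ± 0.128%. The ratio of Mmp9 to Timp1, an inhibitor that binds the Mmp9 precursor, was 1.36, 1.82 and 1.39 with Rb1 and 0.501, 0.348 and 0.764 in controls, with no overlap. Mmp9 alone already separated the groups, so this ratio is no separate result, and Timp1 had only 42 to 135 counts per library. The ratio of Mmp2 to Timp2, the pair that meets at the cell surface, was 0.254, 0.245 and 0.298 with Rb1 and 0.358, 0.260 and 0.267 in controls, and here the groups overlapped. Transcript ratios say nothing of the amount or activity of the proteins.

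**Figure D4:**
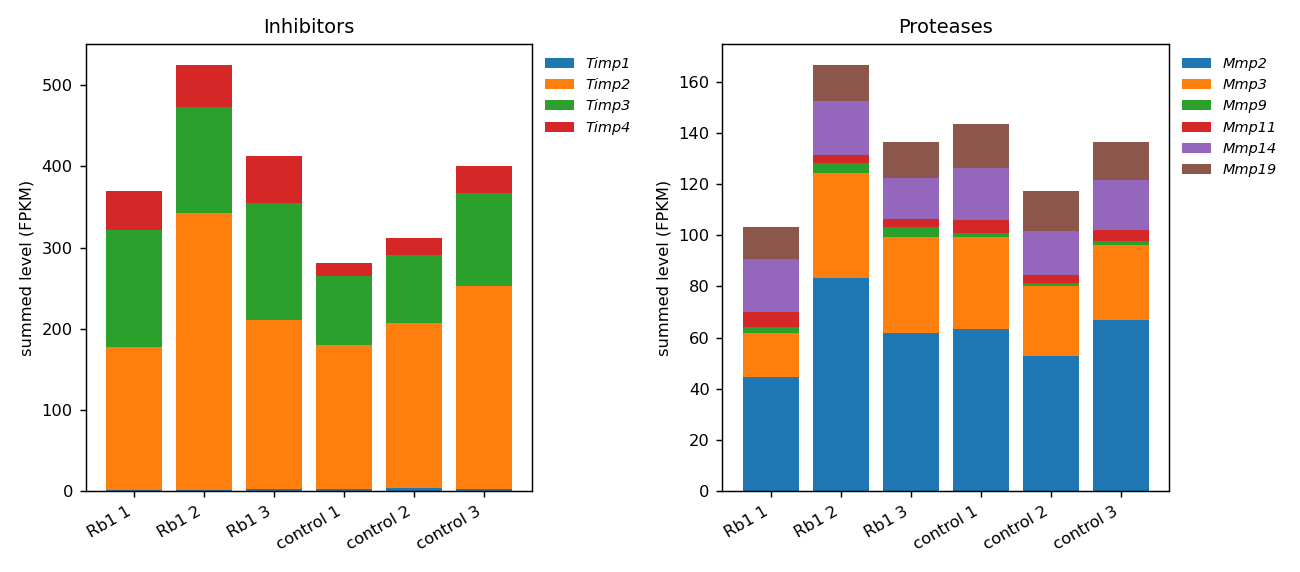
Summed level in FPKM on a linear axis from 0 for the 4 inhibitors (left) and the 6 proteases (right) in each library, with Rb1 libraries left of control libraries and 1 colour per gene. Inhibitor sums run from 370 to 525 in Rb1 and from 281 to 401 in control libraries, and protease sums from 103 to 166 and from 117 to 143.

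Ordered by mean FPKM with Rb1, the genes ran Timp2, Timp3, Mmp2, Timp4, Mmp3, Mmp14, Mmp19, Mmp11, Mmp9 and Timp1. Neighbours whose libraries overlapped within the Rb1 group were Mmp2 with Timp4, Mmp3 with Mmp14, Mmp11 with Mmp9 and Mmp9 with Timp1. In controls the order was Timp2, Timp3, Mmp2, Mmp3, Timp4, Mmp14, Mmp19, Mmp11, Timp1 and Mmp9. Overlapping neighbours there were Mmp3 with Timp4, Timp4 with Mmp14 and Mmp11 with Timp1. Timp4 thus stood above Mmp3 in each Rb1 library, whereas the 2 genes overlapped in controls.

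Profiles over the 6 libraries were compared as edgeR's own log2 CPM after TMM scaling, centred on each gene's mean. Likeness was the root mean square difference in log2 units. Among the 10 genes the closest pair was Mmp2 and Timp2 (0.18), followed by Mmp2 and Mmp3 (0.21) and Mmp14 and Mmp19 (0.23). Mmp14 and Mmp19 varied least of the 10, with root mean square deviations of 0.137 and 0.143 from their own means. Their small difference therefore does not show that they varied together. Mmp2, Mmp3 and Timp2 shared a high value in Rb1 replicate 2 and a low one in Rb1 replicate 1, as did the sum of 8 fibroblast and progenitor markers, at 99.4, 180 and 106 FPKM in Rb1 replicates 1, 2 and 3. That sum was 105, 134 and 140 FPKM in control replicates 1, 2 and 3, and its part in those profiles was not tested. Among 13295 other genes that averaged 1 CPM or more, those closest to Timp4 were Ap5s1 (0.15), Olfr1033 (0.19) and Cyp26b1 (0.21). Those closest to Mmp2 were Cercam (0.04), Naaladl2 (0.06) and Bche (0.07), and those closest to Timp2 were Adamtsl4 (0.05), Lrrn4cl (0.06) and Reck (0.06).

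Of 17 further matrix metalloproteinases listed, 16 were in the table, 8 were tested, none passed in edgeR, and DESeq2 called Mmp12 lower. Over all tested genes DESeq2 called 2.18% lower, and 10.5% were lower without overlap in FPKM. The DESeq2 calls in this and the further lists were not examined with libraries left out. Mmp12, the macrophage elastase, stood at 5.55, 4.51 and 6.51 FPKM in Rb1 replicates 1, 2 and 3, against 19.6, 19.1 and 10.4 FPKM in control replicates 1, 2 and 3. Every Rb1 library was lower, and the log2 fold change was -1.51 (SE 0.26, edgeR adjusted p = 0.155, DESeq2 adjusted p = 4.344e-06). Mmp13, an interstitial collagenase, was scarce, with 14, 3 and 9 counts with Rb1 and 29, 58 and 12 counts in controls (log2 fold change -1.80, edgeR adjusted p = 0.348). Mmp17, a membrane-anchored member, was at 0.48 (edgeR adjusted p = 0.556). Mmp1b, Mmp7, Mmp10, Mmp20 and Mmp21 had 0 counts in all 6 libraries, which allows at most 0.122 to 0.194 CPM in a library. The median of the 8 tested genes was 0.09, and it ran between -0.034, without Rb1 replicate 2, and 0.15, without Rb1 replicate 1, turning to -0.0057 without control replicate 1 and reaching 0.14 without Rb1 replicate 3. Mmp12 shares 157 exon bases with Mmp1b.

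The ADAM and ADAMTS proteases, relatives that shed membrane proteins or cut proteoglycans, were all tested, and none of the 20 passed in edgeR. DESeq2 called Adam8 and Adamts1 lower. Over all tested genes it called 2.18% lower, and 10.5% were lower without overlap in FPKM. Adam8, a sheddase of leukocytes, stood at 4.34, 2.47 and 3.33 FPKM in Rb1 replicates 1, 2 and 3, against 13.6, 11.4 and 8.14 FPKM in control replicates 1, 2 and 3. All Rb1 libraries were lower, and the log2 fold change was -1.66 (SE 0.23, edgeR adjusted p = 0.119, DESeq2 adjusted p = 1.28e-08). Adamts1, a versican-cutting protease, stood at 14.5, 10.6 and 12.0 FPKM in Rb1 replicates 1, 2 and 3, against 18.2, 16.1 and 18.1 FPKM in control replicates 1, 2 and 3. All Rb1 libraries were lower, and the log2 fold change was -0.47 (SE 0.11, edgeR adjusted p = 0.234, DESeq2 adjusted p = 0.0377). Adamts9 was at 0.25 (edgeR adjusted p = 0.396). Adam8 shares 46 exon bases with Gm16201 and Adamts9 shares 1805 with A730049H05Rik and Gm15737. The list median was -0.10, with 11 of 20 values below 0, and -0.20 without Rb1 replicate 2. Markers of macrophages, in which Mmp12 and Adam8 are known to be expressed, stood lower in the same libraries as these 2 genes. The 10 macrophage markers summed to 623 to 876 FPKM in Rb1 libraries and 978 to 1281 FPKM in control libraries. Lyz2 alone stood at 409 to 528 FPKM with Rb1 and 581 to 782 FPKM in controls, so it weighs most in these sums. Of the 10 log2 fold changes 9 were below 0, and none of the genes was at 0 counts. The values ran from -1.55 for Itgax to 0.23 for Cd163. The part of macrophages in the lower levels of Mmp12 and Adam8 was not tested.

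Of 17 tested activators and regulators of the proteases, none passed in edgeR, and DESeq2 called Plau lower. Over all tested genes it called 2.18% lower, and 10.5% were lower without overlap in FPKM. The median log2 fold change of the 17 was 0.14, with 9 values above 0. The sign of that median turned with single libraries, at -0.036 without Rb1 replicate 1 and -0.0025 without Rb1 replicate 2, and it was 0.087 without Rb1 replicate 3, 0.019 without control replicate 1 and 0.27 without control replicate 3. Plau, urokinase, which makes the plasmin that activates protease precursors, stood at 23.9, 23.1 and 22.2 FPKM in Rb1 replicates 1, 2 and 3, against 40.9, 31.8 and 29.4 FPKM in control replicates 1, 2 and 3. All Rb1 libraries were lower (log2 fold change -0.52, SE 0.12, edgeR adjusted p = 0.208, DESeq2 adjusted p = 0.0215). Plaur, its receptor, was at -0.71 (edgeR adjusted p = 0.292), and Tfpi2, a protease inhibitor of the matrix, at -0.73 (edgeR adjusted p = 0.318). Among 24 matrix substrates none passed in edgeR or DESeq2, 20 values were above 0 and the median was 0.19. That median was 0.41 without Rb1 replicate 1, 0.0034 without Rb1 replicate 2, 0.11 without Rb1 replicate 3, 0.086 without control replicate 1 and 0.32 without control replicate 3. The laminin chains Lama4 (0.56, edgeR adjusted p = 0.327) and Lamb1 (0.50, edgeR adjusted p = 0.318) were higher in every Rb1 library than in any control library. In FPKM, 5.48% of all tested genes were higher without overlap. Endothelial markers summed to 204 to 369 FPKM in Rb1 libraries and 207 to 257 FPKM in control libraries, and smooth muscle and pericyte markers to 373 to 492 FPKM with Rb1 and 362 to 406 FPKM in controls. Each of these lists had 5 of 5 log2 fold changes above 0 and no gene at 0 counts. The endothelial sum was 369 FPKM in Rb1 replicate 1 but 204 FPKM in Rb1 replicate 2, below every control library. Of the 8 adipocyte markers, 5 values were above 0 and 3 below, with a median of 0.19, and DESeq2 called 1 higher. The part of these cell types in the higher levels of the laminins, Timp3 and Timp4 was not tested. Lum, lumican, a proteoglycan of collagen fibrils, was at -0.50 (edgeR adjusted p = 0.430).

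Among cytokines and transcription factors known to induce protease genes, 13 of 14 were tested and none passed in edgeR. DESeq2 called Atf3 lower, beside 2.18% of all tested genes called lower. Of the 13, 11 had values below 0, with a median of -0.43. Leaving out Rb1 replicate 1 put that median at -0.91, and leaving out control replicate 1 put it at -0.27. Ets1, a transcription factor of the ETS family named here for its values, had the highest log2 fold change of the list (1.02, SE 0.50, edgeR adjusted p = 0.504). It stood at 14.9, 3.86 and 3.84 FPKM in Rb1 replicates 1, 2 and 3, against 4.58, 3.54 and 3.09 FPKM in control replicates 1, 2 and 3, so that only Rb1 replicate 1 was high. Atf3, a stress-induced partner of AP-1 factors, stood at 5.57, 4.25 and 4.41 FPKM in Rb1 replicates 1, 2 and 3, against 14.6, 14.1 and 11.2 FPKM in control replicates 1, 2 and 3. All Rb1 libraries were lower, and the log2 fold change was -1.45 (SE 0.14, edgeR adjusted p = 0.0744, DESeq2 adjusted p = 1.469e-13). The AP-1 subunits Fosl1 (-1.49, edgeR adjusted p = 0.215) and Jun (-0.34, edgeR adjusted p = 0.301) were also lower in every Rb1 library than in any control library. Both, like Atf3, were named for their small p, and 10.5% of all tested genes were lower without overlap in FPKM. Fosl1 had only 6 to 12 counts with Rb1 and 20 to 38 in controls. It shares 1163 exon bases with Ccdc85b, and Jun shares 232 with Junos. Mmp3, the only gene with the AP-1 motif among the 7 with a window, had a log2 fold change of 0.12 as given above. No window was available for Mmp2, Mmp9 and Mmp19. The part of AP-1 factors in the levels of any of these genes was not tested.

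**Figure D5:**
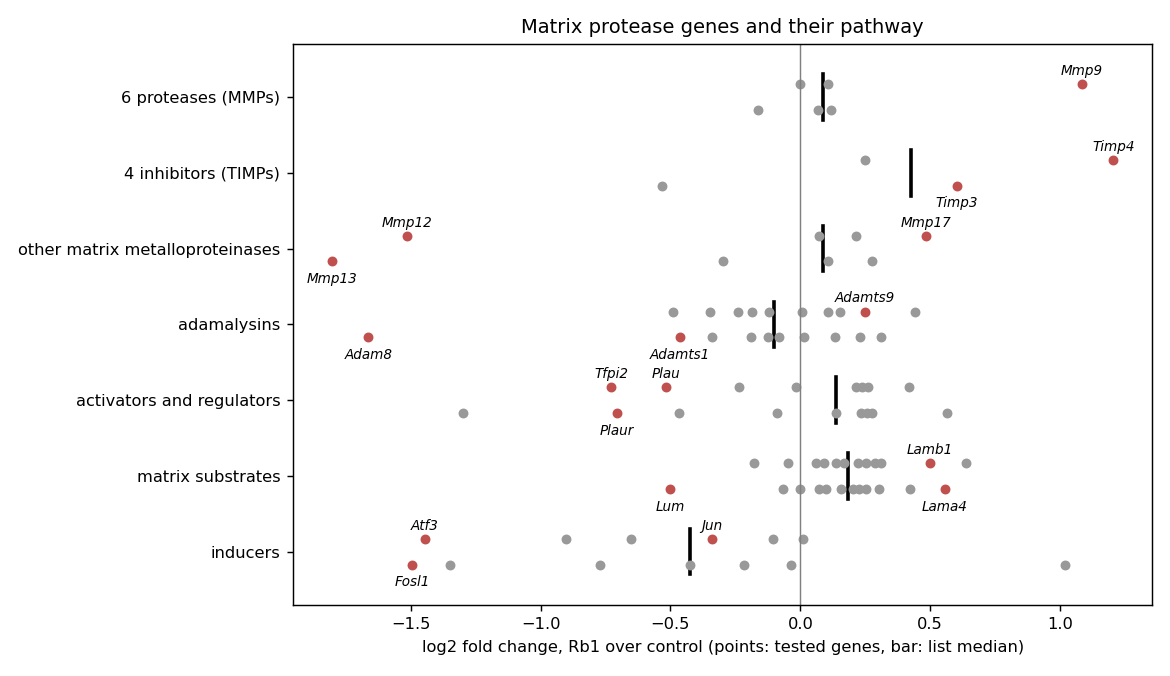
Log2 fold change of Rb1 over control on the horizontal axis for each tested gene (points) of the 6 proteases, the 4 inhibitors and 5 further lists, with a black bar at each list's median. Red points with names are the 3 genes of each further list with the smallest p, and Mmp9, Timp3 and Timp4 among the 10 genes. Mmp12, Mmp13 and Adam8 lie below -1.5, and Timp4, Mmp9 and the unlabelled inducer Ets1 above 1.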

How the data were processed

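Column-purified total RNA went into Illumina libraries, per the labels' protocols, and CASAVA 1.8, TopHat2 2.0.6 and the build mm10 are named in the submitters' processing notes. For the counting tool, the annotation release and the strand setting nothing was found in those sources, and overlapping genes on opposite strands may therefore share reads. The authors deposited raw read counts per Ensembl gene, per the file headers. They also deposited FPKM, which equalled the count over a gene length and the column total on 13169 well-covered genes (largest relative spread 0.00984%) and served for levels only. FPKM falls for all genes when a few transcripts take a larger share of a library.

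Of 22040 identifiers 21933 had a symbol, and 4569 genes had 0 counts in all libraries. Genes were tested with edgeR 4.0.16 in R 4.3.3 (TMM, default filterByExpr settings of 10 for the count and 15 for the total, no covariates), with Benjamini-Hochberg adjustment over 14093 genes. Standard errors and 95% intervals came from the quasi-likelihood F statistic. DESeq2 1.42.0, other scalings, no filter, a replicate block and leaving out each library were alternatives. Shares of counts and floors of 3 counts cover counting error only. No 2 libraries agreed within sampling noise (chi-square per degree of freedom at least 30.38). Whether each sample is a different mouse is not stated in the labels, and the spread behind every p-value may be partly technical. On counts simulated for Rb1 against control over 13968 genes, the share of 2-fold changes recovered was 39% in edgeR and 69% in DESeq2, the share of 4-fold changes 89% and 92%, and false calls numbered 5 of 133 and 39 of 200.

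The genes and lists were chosen with earlier results of these data known. Named are the 10 genes, the 3 genes of each further list with the smallest p, and the 3 closest profiles for Timp4, Mmp2 and Timp2, which are the gene with the smallest p and the most abundant protease and inhibitor. The TATA box search was added after the data were seen. Positions follow GENCODE M21 (GRCm38, also called mm10), which may not be the annotation the authors counted with.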

Additional observations from a re-analysis of the deposited data

How the results depend on the processing

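With other scalings (RLE, upper quartile), without the expression filter, and with the replicate block, edgeR called 1 gene and none of the 10, as with the main settings. Whether replicate numbers pair the samples stays unknown. Deviations of same-numbered libraries correlated across genes at 0.14, -0.11 and 0.02, and not every library was closest to its own number. The block changed no call, but the main fit held only 1 call. So few pairs and calls cannot decide the question. Leaving out 1 library gave 1 to 4 genes in edgeR and none of the 10. DESeq2 called 390 genes and 3 of the 10. With 1 library left out, chosen after seeing the data, DESeq2 called 439, 318 and 242 genes without Rb1 replicates 1, 2 and 3, and 295, 196 and 717 without control replicates 1, 2 and 3. Of the 10 it then called 2, 1 and 0, and 1, 0 and 3. Without Rb1 replicate 1 and control replicate 2 together, also chosen later, edgeR called 10 genes and none of the 10 described, and the log2 fold changes were 1.31 for Mmp9, 1.20 for Timp4 and 0.55 for Timp3.

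Mmp9, Timp3, Timp4, Mmp19 and Timp1 kept their sign in every alternative run. For Timp1 and Mmp19 the size did not hold. Without Rb1 replicate 1 and control replicate 2, Timp1 was at -0.032 and Mmp19 at -0.057, beside -0.53 and -0.16 with all libraries. Signs turned for 5 genes with log2 fold changes of at most 0.25 in size, and the cause was not tested. With 1 library left out in edgeR, Mmp11 ran between -0.34 and 0.18, Mmp14 between -0.033 and 0.17, Mmp2 between -0.17 and 0.34, Mmp3 between -0.13 and 0.44, and Timp2 between -0.12 and 0.46. Mmp11 was at -0.0007 with upper-quartile scaling, -0.025 with the replicate block and -0.54 without Rb1 replicate 1 and control replicate 2, where Mmp14 was at -0.0079. In DESeq2, Mmp11 was at -0.35 without Rb1 replicate 1 and -0.19 without control replicate 2. Without Rb1 replicate 2, DESeq2 gave -0.029 for Mmp14, -0.17 for Mmp2, -0.12 for Mmp3 and -0.11 for Timp2, and without Rb1 replicate 3 it gave -0.021 for Mmp3. Counts of 42 to 135 per library for Timp1 and 110 to 357 for Mmp9 limit the precision of these 2 genes.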
